A study of Mus musculus with 24 samples.

Results

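Complement is a cascade of plasma and tissue proteins that tags targets and calls in phagocytes. The 9 genes described here encode the 3 chains of C1q, the recognition molecule of the classical pathway (C1qa, C1qb and C1qc), the pathway component C4b, the central component C3, the alternative pathway protease factor B (Cfb), the receptors for the anaphylatoxins C3a and C5a (C3ar1 and C5ar1) and C1 inhibitor (Serping1). They were taken by symbol from the 36333 genes of the deposited expression table. All 9 were above 0 in every one of the 24 libraries, and all 9 entered the tests, which covered the 17267 genes whose mean level reached 0.5 TPM (a level scaled by transcript length and to a fixed sum for each library).

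The libraries came from polyadenylated RNA of 24 male mice at 5 dpi (days post injury), with 1 library for each mouse, which was the unit of replication. TBI (traumatic brain injury) was modelled by CCI (controlled cortical impact). Of the injured mice, 5 received vehicle, 5 the CSF1R inhibitor PLX3397 in chow (290 mg/kg food, from 90 min after injury), 5 the IL1R1 blocker Anakinra (100 mg/kg subcutaneously at 5 min, 24 h, 48 h and 72 h) and 5 both drugs, while 4 mice were sham-operated without craniotomy and were given vehicle. The labels name the strain C57BL6N, an age between 12 and 16 weeks and cortex as tissue, whereas the methods name C57BL/6JRj mice and a quadrant that also held striatum, dorsal hippocampus and thalamus. The choroid plexus marker Ttr, at a mean of 3301 ± 454 TPM (SD, n = 5) in vehicle mice and 3487 ± 506 (n = 4) in sham mice, was high in all groups, and cortex itself holds no choroid plexus. Only vehicle mice carry the letter B in their animal names, and whatever the letter stands for cannot be told apart from vehicle treatment.

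In the classical pathway, C1q binds to antibodies, debris or synapses and its proteases cleave C4 and C2, which leads to cleavage of C3, and the alternative pathway amplifies C3 cleavage through factor B. In the brain, C1q is made mainly by microglia, C4 by astrocytes and other glia, C3 by reactive glia and infiltrating cells, and C1 inhibitor by vascular and glial cells. C1q and C3 are known for marking synapses for removal by microglia in development and disease.

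The genes of the 3 C1q chains lie side by side on chromosome 4 (GRCm38), all on the minus strand and within 18719 bases, with 3600 bases between C1qb and C1qc and 2979 bases between C1qc and C1qa. C4b (chr17:34728139-34743902), Cfb (chr17:34856374-34862514) and C3 (chr17:57203967-57228136) are on chromosome 17, the first pair in the major histocompatibility region. C3ar1 is at chr6:122847140-122856157, C5ar1 at chr7:16246743-16259540 and Serping1 at chr2:84765360-84775444. RefSeq promoter windows, from 250 bases before to 50 bases after the annotated start, were at hand for 5 of the 9 genes. They were searched on both strands for GAGGAA (core of sites of the myeloid factor PU.1), GAAANNGAA (interferon-stimulated response element), TTCNNNGAA (STAT), TTGCNNAA (C/EBP) and GGANTTTCC (NF-kappaB), and overlapping matches were allowed. Shown here are the windows of C1qb and C1qc, neighbours that moved together, of the receptor C5ar1, which was called lower with PLX3397 alone as they were, and of C3, which was not. All are on the minus strand of GRCm38.p6 and read 5′ to 3′, with motif matches in capitals.
C1qb promoter, chr4:136886151-136886450: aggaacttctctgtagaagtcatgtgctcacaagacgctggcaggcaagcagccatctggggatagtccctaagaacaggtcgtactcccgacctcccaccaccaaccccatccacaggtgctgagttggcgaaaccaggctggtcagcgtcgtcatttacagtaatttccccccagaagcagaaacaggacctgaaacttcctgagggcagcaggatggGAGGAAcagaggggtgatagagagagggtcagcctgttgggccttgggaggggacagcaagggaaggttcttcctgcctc
C1qc promoter, chr4:136892865-136893164: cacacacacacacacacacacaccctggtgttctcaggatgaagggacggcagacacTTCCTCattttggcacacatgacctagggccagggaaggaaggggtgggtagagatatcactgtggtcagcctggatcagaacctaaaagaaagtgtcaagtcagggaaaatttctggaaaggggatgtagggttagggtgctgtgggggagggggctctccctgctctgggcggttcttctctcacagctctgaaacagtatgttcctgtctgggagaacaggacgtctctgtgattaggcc
C5ar1 promoter, chr7:16259289-16259588: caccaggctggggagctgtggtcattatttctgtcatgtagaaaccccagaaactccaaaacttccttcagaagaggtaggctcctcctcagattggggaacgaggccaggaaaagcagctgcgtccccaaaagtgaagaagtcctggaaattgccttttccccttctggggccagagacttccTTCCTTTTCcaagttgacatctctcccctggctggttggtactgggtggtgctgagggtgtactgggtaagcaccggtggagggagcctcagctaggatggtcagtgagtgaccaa
C3 promoter, chr17:57228087-57228386: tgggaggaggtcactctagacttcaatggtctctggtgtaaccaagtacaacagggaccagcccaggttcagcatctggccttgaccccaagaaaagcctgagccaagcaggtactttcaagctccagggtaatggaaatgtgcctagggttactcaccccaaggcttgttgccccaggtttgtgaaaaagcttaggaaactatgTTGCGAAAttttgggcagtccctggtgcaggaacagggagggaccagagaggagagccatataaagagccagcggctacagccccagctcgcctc
The start of a window need not be the end of the gene span given above. It is the same base for C1qb, C3 and C3ar1, but lies 22 bases inside the span of C1qc and 202 bases inside that of C5ar1. Counted from the start of the window's own transcript, the capitals mark a PU.1 core that begins 30 bases before it in C1qb, the same core on the opposite strand 193 bases before it in C1qc, an interferon-stimulated response element on the opposite strand 66 bases before it in C5ar1 and a C/EBP motif 45 bases before it in C3. In the window of C3ar1 (chr6:122856108-122856407) none of the 5 motifs was found. Of 32851 promoter windows in the table, 28.3% held the PU.1 core, 8.56% the interferon element, 8.3% the STAT motif, 10.8% the C/EBP motif and 1.25% the NF-kappaB motif, so that a match is a description of these letters and not a site.

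All 9 genes were higher after injury than after sham surgery. Sham mice had no craniotomy, so that injury here joins craniotomy and impact, which cannot be told apart. In vehicle mice compared with sham mice, 9 of 9 genes were higher at a Benjamini-Hochberg adjusted p below 0.05 in limma, where 26.6% of all genes tested were called higher. None of the 9 genes had overlapping groups, but the share of all genes tested without overlap was not determined. The median difference over the 9 genes was 3.28 on the log2(TPM + 1) scale, on which all log2 differences (log2FC) are given and which understates changes of genes at low levels, compared with a median of -0.01 over all genes tested.

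C1qa carried the highest level of the 9 genes. It was at 109, 100.4, 106 and 118 TPM in the 4 sham mice and at 1168, 958, 1303, 1385 and 1242 TPM in the 5 vehicle mice. The lowest vehicle mouse was far above the highest sham mouse, and C1qa moved from a place between 1718 and 2060 in the ranking of all genes by TPM in sham libraries to a place between 60 and 113 in vehicle libraries. The difference was 3.46 ± 0.11 (SE, adjusted p = 5.4e-18 in limma), an 11.2-fold higher mean. C1qb rose from 99.5 ± 7.47 TPM (SD, n = 4) to 983 ± 137 (n = 5), and C1qc from 88.8 ± 8.40 TPM (n = 4) to 913 ± 141 (n = 5). The 3 chains, which assemble in equal numbers in the protein, were close to each other in level, with 0.811 ± 0.007 TPM of C1qb and 0.752 ± 0.017 of C1qc for each TPM of C1qa in vehicle mice. In sham mice these ratios were 0.920 ± 0.044 and 0.822 ± 0.074.

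C4b, whose product is cleaved by the proteases of the C1 complex, was at 18.6, 14.5, 15.6 and 16.5 TPM in sham mice and at 157, 139, 187, 181 and 182 TPM in vehicle mice. The groups were far apart, with a log2FC of 3.29 ± 0.09 (adjusted p = 8.3e-19 in limma) and a 10.4-fold higher mean. Its neighbour C4a (chr17:34809092-34823460) is a copy that shares stretches of sequence with it. C4a was not higher after injury, at 1.43 TPM in sham and 1.03 TPM in vehicle mice (log2FC -0.26, adjusted p = 0.051 in limma). Of the windows of 150 bases, the read length given in the labels, in the C4b transcript of 5379 bases, 8.26% also occurred letter for letter in C4a transcripts, and with windows of 50 bases 35.2% did. How reads from shared stretches were split between the copies is not given in the sources used here, so that levels of both genes are uncertain by reads of such stretches.

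C3, the component on which all pathways converge, stood at 1.15, 0.547, 1.08 and 0.676 TPM in sham mice and at 13.2, 8.39, 14.8, 12.1 and 19.1 TPM in vehicle mice. Its mean was 15.7-fold higher after injury (log2FC 2.93 ± 0.19, adjusted p = 3.5e-12 in limma), although the vehicle mice differed from each other more than for C1q or C4b, with a coefficient of variation of 29.0% compared with 13.4% for C1qa and 12.2% for C4b. Cfb, the lowest of the 9 genes, was at 0.359, 0.785, 0.362 and 0.517 TPM in sham mice and at 2.49, 1.37, 1.91, 2.22 and 1.96 TPM in vehicle mice. This was a 3.94-fold higher mean with a log2FC of only 0.99 ± 0.14 (adjusted p = 2e-06 in limma), since the pseudocount of 1 TPM weighs on a gene at this level.

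Among the receptors, C3ar1 was at 1.22, 1.20, 1.25 and 1.64 TPM in sham mice and at 38.4, 27.2, 39.6, 45.7 and 36.5 TPM in vehicle mice, the steepest rise of the 9 genes (28.2-fold higher mean, log2FC 4.03 ± 0.13, adjusted p = 1.4e-17 in limma). C5ar1 was at 1.66, 0.898, 0.877 and 1.80 TPM in sham mice and at 25.6, 12.9, 23.6, 23.6 and 16.0 TPM in vehicle mice. Its mean was 15.6-fold higher (log2FC 3.19 ± 0.17, adjusted p = 9.3e-14 in limma), and the vehicle mice again covered a wide range. Serping1, which inactivates the proteases of the C1 complex, was at 11.04, 10.03, 10.1 and 11.4 TPM in sham mice and at 36.6, 28.6, 38.9, 37.4 and 36.3 TPM in vehicle mice. With a 3.34-fold higher mean (log2FC 1.65 ± 0.11, adjusted p = 4.2e-12 in limma) the inhibitor rose less than the component C4b, and C4b per TPM of Serping1 went from 1.53 ± 0.11 in sham mice to 4.76 ± 0.27 in vehicle mice.

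**Figure D1:**
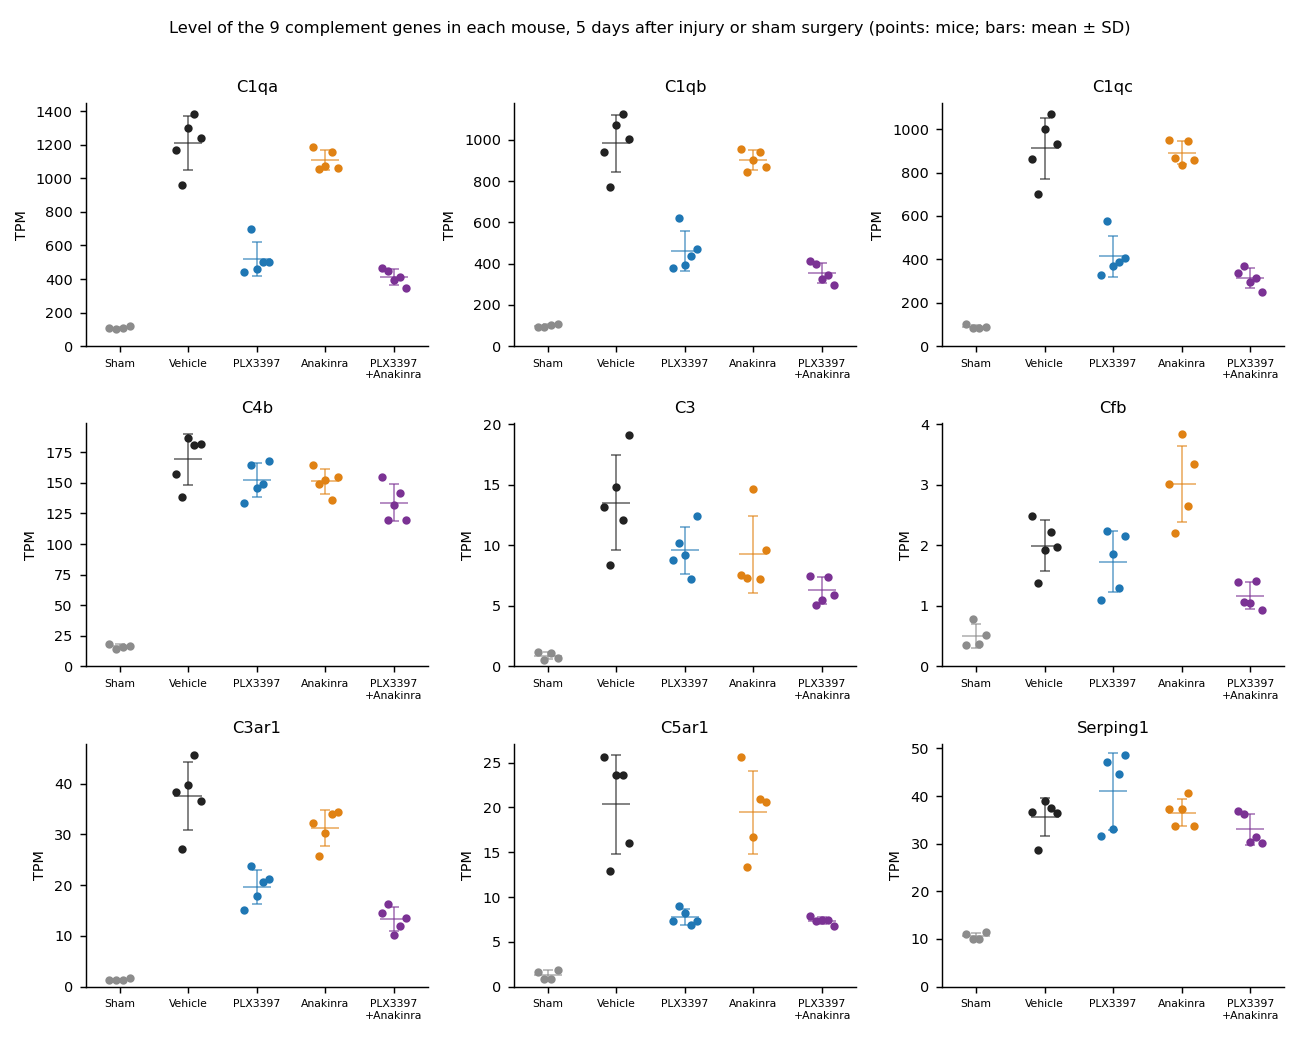
Level in TPM (vertical axes, starting at 0 and scaled for each gene) of the 9 complement genes in each of the 24 mice, by group. Points are mice and bars are mean ± SD (n = 5, or 4 for sham). All sham mice lie below all injured mice for every gene, and the 3 C1q chains, C3ar1 and C5ar1 are lower in both groups given PLX3397, whereas C4b and Serping1 stay near the vehicle level.

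Marker genes of several cell types moved with injury as well. The summed level of 10 microglia markers (Tmem119, P2ry12 and others) was 347 ± 11.9 TPM in sham and 1622 ± 180 in vehicle mice, and 10 of 10 were called higher. The C1q chains rose more than these markers, from 0.855 ± 0.049 TPM for each TPM of the markers in sham mice (range 0.813 to 0.912) to 1.91 ± 0.10 in vehicle mice (range 1.76 to 2.01). The 8 markers of reactive astrocytes, 8 of 8 called higher, summed to 212 ± 15.5 TPM in sham and 3487 ± 676 in vehicle mice, and C4b per TPM of Gfap was 0.142 ± 0.014 in sham and 0.0879 ± 0.0078 in vehicle mice. Markers of border macrophages rose too, with 5 of 7 called higher and 1 lower, at a sum of 12.9 ± 1.52 TPM in sham and 121 ± 33.0 in vehicle mice. Of 8 markers of monocytes and neutrophils 5 were tested, and 5 of 5 were called higher. The 8 summed to 2.28 ± 1.40 TPM in sham mice, where Mmp8 and Ngp were at 0, and to 25.5 ± 12.2 TPM in vehicle mice. The part of these cells in the complement levels was not tested. In bulk tissue, more cells of a type and more RNA of a gene per cell cannot be told apart.

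The PLX3397 group showed these levels under an inhibitor of CSF1R, a receptor on which microglia rely for survival. In mice given PLX3397 alone, the 3 C1q chains, C3ar1 and C5ar1 were lower than in vehicle mice, whereas C4b, C3, Cfb and Serping1 were not called. Thus 5 of 9 genes were called lower, compared with 6.66% of all genes tested, and none was called higher, compared with 3.23%. The median log2FC was -0.89 over the 9 genes and 0.01 over all genes tested. The same 5 vehicle mice served as reference for all 3 drug groups.

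The C1q chains fell by slightly more than 1 log2 unit. C1qa was at 442, 696, 461, 502 and 499 TPM in the 5 PLX3397 mice, all below the lowest vehicle mouse at 958 TPM. The log2FC was -1.23 ± 0.10 for C1qa (adjusted p = 9.5e-09 in limma), -1.10 ± 0.11 for C1qb (adjusted p = 1.4e-07) and -1.15 ± 0.12 for C1qc (adjusted p = 2.3e-07). One PLX3397 mouse, J02, was the highest of its group for C1qa, C1qb at 621 TPM and C1qc at 576 TPM, and for the sum of the microglia markers in the group, which ranged from 609 to 923 TPM. The C1q chains remained far above sham levels in this group, with a 4.80-fold higher mean for C1qa.

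The receptors moved with C1q. C3ar1 was at 14.997, 23.7, 17.7, 20.7 and 21.1 TPM and C5ar1 at 7.28, 9.05, 8.27, 6.87 and 7.36 TPM in the PLX3397 mice. Both groups of values lay below all vehicle mice, with log2FC of -0.89 ± 0.13 (adjusted p = 2e-05 in limma) and -1.25 ± 0.16 (adjusted p = 5.9e-06). C4b was at 134, 164, 145, 149 and 168 TPM under PLX3397, a range that overlapped with vehicle mice (log2FC -0.15, 95% confidence interval -0.32 to 0.03, adjusted p = 0.32 in limma). Any fall of C4b larger than 0.32 log2 units lay outside this interval.

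The 5 PLX3397 values of C3, at 8.81, 10.2, 9.22, 7.23 and 12.4 TPM, included 1 below every vehicle mouse and otherwise overlapped with the lower vehicle mice. The log2FC was -0.43 (interval -0.81 to -0.06, adjusted p = 0.14 in limma), and without vehicle mouse J17B, which had the lowest C3 of its group, it was -0.58 and called (adjusted p = 0.0279). Cfb, at 1.103, 2.23, 1.86, 1.29 and 2.16 TPM, had 2 mice below every vehicle mouse and the others within their range (log2FC -0.14, adjusted p = 0.59). Serping1 was at 31.5, 47.1, 33.1, 44.6 and 48.6 TPM, with 3 mice above all vehicle mice and the others within their range (log2FC 0.18, interval -0.03 to 0.40, adjusted p = 0.3).

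**Figure D2:**
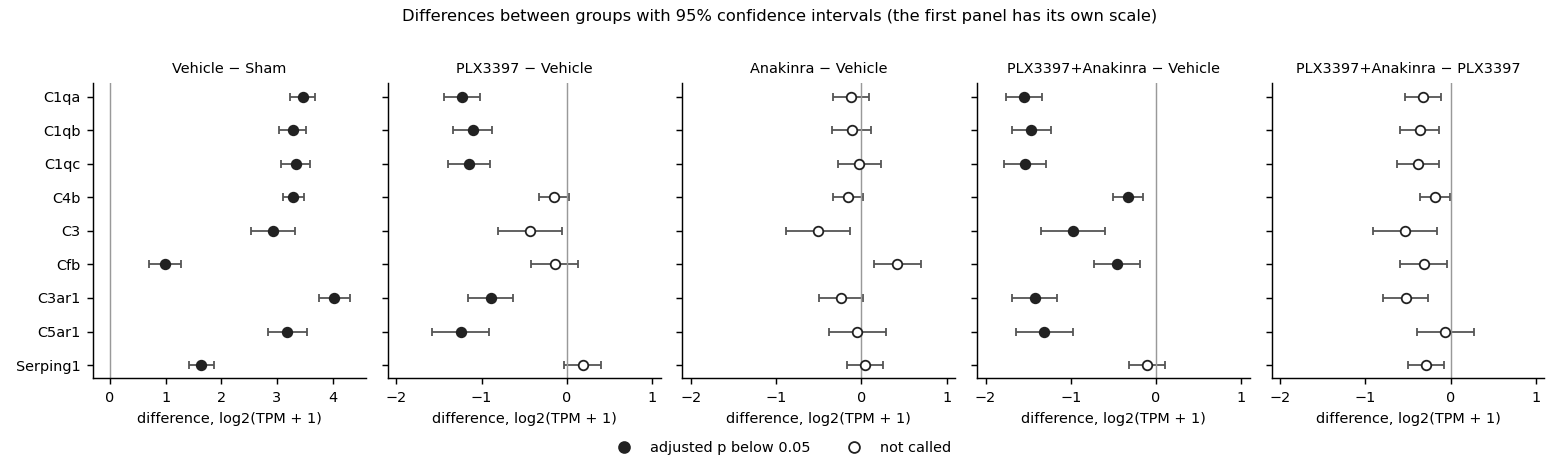
Differences in log2(TPM + 1) between groups (horizontal axes, with a separate scale in the first panel) for the 9 genes, with 95% confidence intervals from limma. Filled points had an adjusted p below 0.05. All 9 genes are filled and above 0 for vehicle against sham, 5 are filled for PLX3397 against vehicle, none for Anakinra against vehicle, 8 for both drugs against vehicle and none for both drugs against PLX3397.

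The drug target and other markers showed the same split. Csf1r was at 226 ± 22.9 TPM in vehicle and 89.1 ± 18.9 TPM in PLX3397 mice (log2FC -1.35, adjusted p = 6.9e-10 in limma), and 10 of 10 microglia markers were called lower, at a sum of 707 ± 128 TPM compared with 1622 ± 180. C1q per TPM of these markers was 1.97 ± 0.09 under PLX3397 (range 1.86 to 2.05), within reach of 1.91 ± 0.10 in vehicle mice, so that C1q and the markers were lower by about the same factor. C5ar1 stood at 1.12% ± 0.16 of the summed markers compared with 1.25% ± 0.33, and C3ar1 at 2.79% ± 0.29 compared with 2.30% ± 0.27, with overlap between the groups in both cases. C3 was at 1.38% ± 0.33 of the summed markers under PLX3397 (range 1.02 to 1.85) and at 0.8287% ± 0.204 in vehicle mice (range 0.608 to 1.13). For the 8 markers of reactive astrocytes, 0 were called in either direction in limma and 1 had an unadjusted p below 0.05, as had 3936 of the 17267 genes tested. C4b per TPM of Gfap was 0.0840 ± 0.0041. As a result, the C1q chains together were 18.3 ± 0.98 times the level of C4b in vehicle mice and 9.13 ± 1.37 times in PLX3397 mice, without overlap. Whether C1q per microglial cell changed was not tested.

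Other cell types moved with PLX3397 too. Of 7 markers of border macrophages, 6 were called lower (sum 52.8 ± 14.4 TPM compared with 121 ± 33.0), and of 5 red blood cell genes 5 were called lower (825 ± 189 TPM compared with 3107 ± 1232). Their part in the complement differences was not tested. Markers of mural cells and fibroblasts went the other way, with 4 of 8 called higher (804 ± 243 TPM compared with 459 ± 238). This was not particular to PLX3397. Under Anakinra alone the sum was 947 ± 261 TPM, with 0 of 8 called in limma. There 6 of the 8 had an unadjusted p below 0.05, as had 2148 of the 17267 genes tested. With both drugs the sum was 809 ± 149 TPM, and 3 of 8 were called higher.

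Blocking IL1R1 with Anakinra alone changed none of the 9 genes by the adjusted p. In limma 0 of 9 were called, while 0.116% of all genes tested were called in either direction. At an unadjusted p below 0.05 were 2 of the 9 (C3 and Cfb) and 2148 of the 17267 genes tested. The C1q chains were close to vehicle levels, with C1qa at 1186, 1058, 1074, 1159 and 1064 TPM, all within the vehicle range. For the 3 chains the log2FC lay between -0.12 and -0.02, and the lowest bound of an interval was -0.34, that of C1qb. C3ar1 (log2FC -0.24, interval -0.50 to 0.02) and C5ar1 (-0.05, interval -0.38 to 0.29) overlapped with vehicle mice, and so did C4b (-0.15, interval -0.33 to 0.02) and Serping1 (0.04, interval -0.17 to 0.25).

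C3 and Cfb stood at opposite ends under Anakinra. C3 was at 7.58, 7.26, 14.6, 7.19 and 9.61 TPM, with 3 mice below the lowest vehicle mouse and mouse J14 among the higher vehicle mice (log2FC -0.51 ± 0.18, adjusted p = 0.24 in limma). Cfb was at 3.01, 2.20, 3.83, 2.64 and 3.33 TPM, with 4 of 5 mice above the highest vehicle mouse at 2.49 TPM (log2FC 0.42 ± 0.13, adjusted p = 0.18). Neither passed the adjusted threshold. The summed level of 10 interferon-stimulated genes was 481 ± 61.7 TPM under Anakinra and 355 ± 43.6 in vehicle mice, with 0 of 10 called in limma and 9 of 10 at an unadjusted p below 0.05.

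With PLX3397+Anakinra, 8 of 9 genes were called lower than in vehicle mice, compared with 9.6% of all genes tested, and none was called higher (7.88% of all genes). Serping1 was the exception. The median log2FC over the 9 genes was -1.31, and that over all genes was 0.01. C1qa was at 468, 447, 392, 409.8 and 347 TPM (log2FC -1.55 ± 0.10, adjusted p = 1.3e-10 in limma), C3ar1 at 14.6, 16.2, 10.2, 11.9 and 13.6 TPM (-1.42 ± 0.13, adjusted p = 7.1e-09) and C5ar1 at 7.84, 7.28, 7.49, 7.46 and 6.75 TPM (-1.31 ± 0.16, adjusted p = 1.5e-06). All these values lay below the lowest vehicle mouse. The C5ar1 values of the mice with both drugs were also the most even of any group, with a coefficient of variation of 5.41%.

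Unlike under PLX3397 alone, C3, C4b and Cfb were called lower with both drugs. C3 was at 7.45, 5.07, 5.51, 7.36 and 5.92 TPM, below every vehicle mouse (log2FC -0.97 ± 0.18, adjusted p = 0.00042 in limma). C4b was at 155, 120, 132, 142 and 120 TPM, a modest fall with partly overlapping groups (-0.33 ± 0.09, adjusted p = 0.0073). Cfb was at 1.38, 1.07, 1.04, 1.41 and 0.932 TPM, with 2 mice just above the lowest vehicle mouse (-0.46 ± 0.13, adjusted p = 0.018). Serping1 was at 36.8, 36.3, 30.2, 31.5 and 30.2 TPM, within the vehicle range (-0.10, interval -0.31 to 0.11, adjusted p = 0.56).

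Compared with vehicle mice, both drugs also went with lower marker genes, as 3 of 8 markers of reactive astrocytes were called lower (sum 2952 ± 275 TPM compared with 3487 ± 676) and 9 of 10 interferon-stimulated genes (223 ± 33.5 TPM compared with 355 ± 43.6), where PLX3397 alone had 0 and 1 called lower. Microglia markers were lower in 10 of 10 (sum 639 ± 73.6 TPM) and markers of border macrophages in 6 of 7 (15.8 ± 2.87 TPM). Against PLX3397 alone, 3 of 7 border macrophage markers were called lower, and 0 of 10 interferon-stimulated genes were called in limma, with 9 at an unadjusted p below 0.05. Of the 8 markers of reactive astrocytes, 0 were called in that comparison. An unadjusted p below 0.05 was found for 2 of them and for 1159 of the 17267 genes tested. The part of these markers in the levels of C3, C4b and Cfb was not tested. C1q per TPM of the microglia markers was 1.70 ± 0.15 with both drugs (range 1.47 to 1.85), with all 5 mice below the range of PLX3397 alone, a difference that was not tested.

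That these genes were called with both drugs and not with PLX3397 alone did not show a difference between the groups. Compared directly, PLX3397+Anakinra and PLX3397 differed in 0 of 9 genes in limma, where 0.151% of all genes tested were called. Even so, all 9 log2FC were below 0, and 8 had an unadjusted p below 0.05, as had 1159 of the 17267 genes tested. The values ran from -0.06 for C5ar1 to -0.54 for C3 (interval -0.91 to -0.16, adjusted p = 0.4) and -0.53 for C3ar1 (interval -0.79 to -0.27, adjusted p = 0.11). The C3ar1 difference was called without vehicle mouse J17B (adjusted p = 0.0365, the value being unchanged and the shared spread smaller) or without PLX3397 mouse J01 (-0.62, adjusted p = 0.0245). The groups overlapped for all 9 genes.

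Compared with Anakinra alone, the combination was lower in 6 of 9 genes (the 3 C1q chains, C3ar1, C5ar1 and Cfb), with 8.1% of all genes called lower. Cfb was 2.57-fold lower without overlap (log2FC -0.88 ± 0.13, adjusted p = 3.2e-05 in limma). For C4b and C3 the log2FC was -0.18 (adjusted p = 0.17) and -0.46 (adjusted p = 0.096), and for Serping1 -0.14 (adjusted p = 0.38).

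The interaction, which is 0 where the log2 changes of the single drugs add up, was called in limma for 0 of 9 genes and 0.0% of all genes tested. At an unadjusted p below 0.05 were 3 of the 9 and 1395 of the 17267 genes tested. Cfb had the largest value, -0.74 ± 0.19 (interval -1.12 to -0.35, adjusted p = 0.34), its mean being 1.99 TPM with vehicle, 1.73 with PLX3397, 3.01 with Anakinra and 1.17 with both drugs. The other values at an unadjusted p below 0.05 were those of C1qc (-0.36, adjusted p = 0.6) and Serping1 (-0.33, adjusted p = 0.58). For C3 the value was -0.03 (interval -0.56 to 0.50) and for C4b -0.03 (interval -0.28 to 0.22).

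None of the treatments brought the 9 genes to sham levels. All 9 were called higher than sham in each of the PLX3397, Anakinra and PLX3397+Anakinra groups, where 22.7%, 25.1% and 20.7% of all genes were called higher. An F-test in limma over the 5 groups called 9 of 9 genes and 51.9% of all genes. The distance can be expressed as the part of the vehicle elevation over sham, in mean TPM, that was left. For C1qa, 37.3% ± 9.22 (SD, n = 5) was left under PLX3397, 90.7% ± 5.42 under Anakinra and 27.6% ± 4.29 with both drugs, compared with 100% ± 14.7 in vehicle mice by construction of the mean. For C5ar1, 33.9% ± 4.62 was left under PLX3397 and 31.8% ± 2.09 with both drugs, and for C3ar1 50.7% ± 9.25 and 33.1% ± 6.42. C4b kept 88.9% ± 9.11 under PLX3397 and 76.9% ± 9.92 with both drugs. C3 was left at 68.7% ± 15.1 under PLX3397, 66.3% ± 25.0 under Anakinra and 42.6% ± 8.58 with both drugs. Cfb spanned from 44.6% ± 14.6 with both drugs to 168% ± 42.2 under Anakinra, and Serping1 from 89.8% ± 13.1 with both drugs to 122% ± 32.4 under PLX3397.

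**Figure D3:**
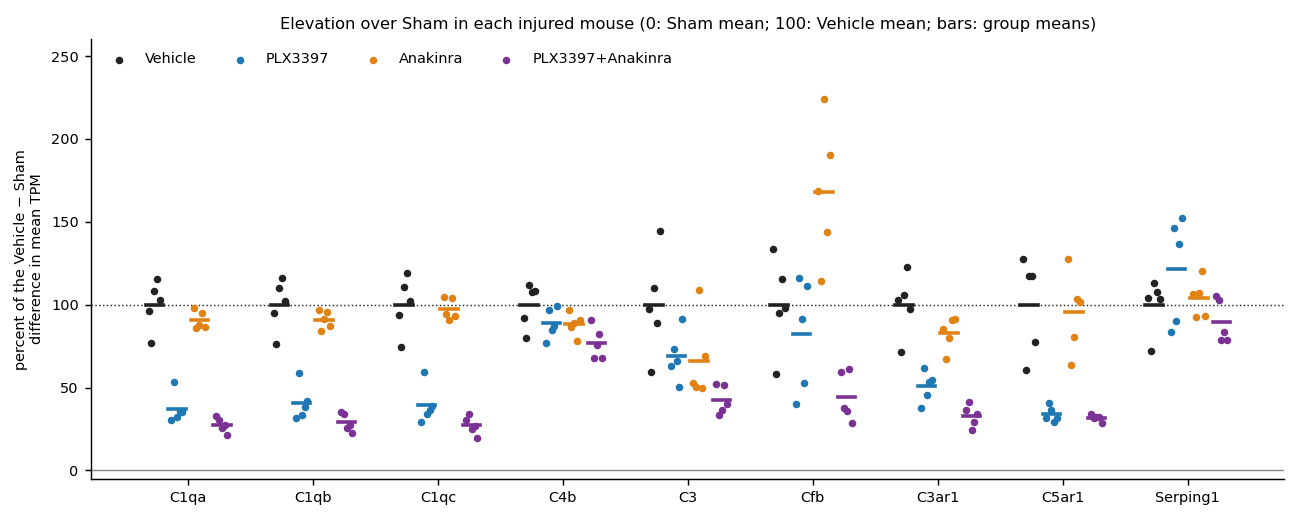
Elevation over the sham mean in each injured mouse, as percent of the difference in mean TPM between vehicle and sham (vertical axis, 0 is the sham mean and 100 the vehicle mean), for the 9 genes. Points are mice and bars group means (n = 5). The C1q chains, C3ar1 and C5ar1 sit between 19.7% and 61.8% in the groups given PLX3397, whereas all mice of these groups are at 67.7% or above for C4b and Anakinra mice reach 224% for Cfb.

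The composition of the complement transcripts changed with PLX3397. The 9 genes summed to 328 ± 19.3 TPM in sham, 3385 ± 475 in vehicle, 1626 ± 312 in PLX3397, 3152 ± 160 in Anakinra and 1277 ± 151 TPM in PLX3397+Anakinra mice. The C1q chains made up 90.6% ± 0.41 of this sum in sham, 91.8% ± 0.27 in vehicle and 92.0% ± 0.45 in Anakinra mice, but 85.6% ± 1.49 in PLX3397 and 84.7% ± 1.24 in PLX3397+Anakinra mice. The groups with PLX3397 (highest mouse 88.1%) did not overlap with those without it (lowest mouse 90.0%). The ratio of C1q to C4b was likewise about 18 to 19 in the groups without PLX3397 (18.3 ± 1.26 in sham mice, 19.3 ± 1.81 under Anakinra) and 8.13 ± 1.14 with both drugs.

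**Figure D4:**
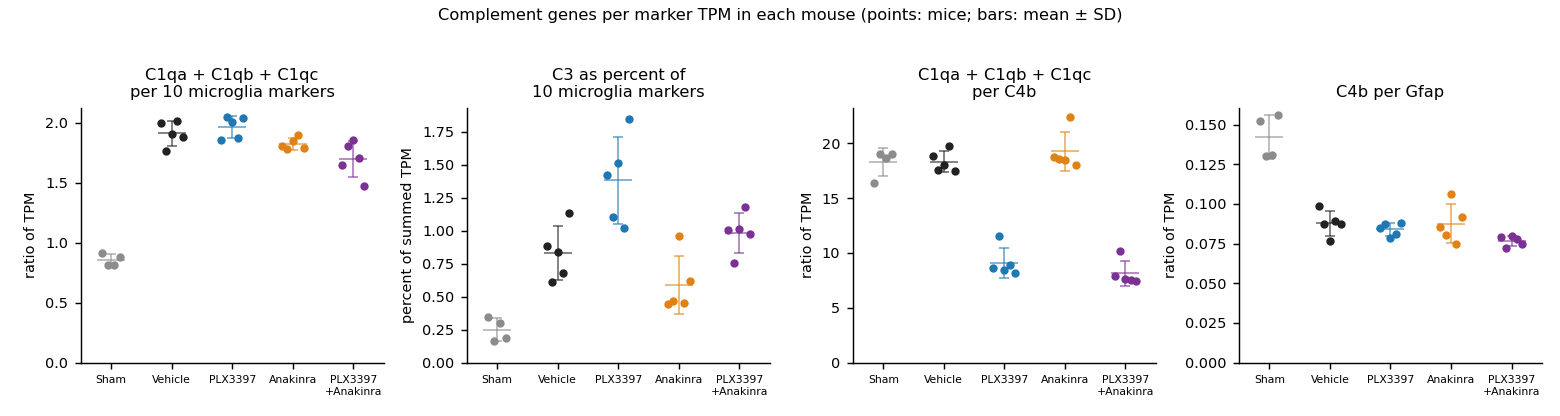
Complement genes per marker level in each mouse, by group (vertical axes start at 0). From left, the 3 C1q chains per TPM of 10 microglia markers, C3 as percent of these markers, the C1q chains per TPM of C4b, and C4b per TPM of Gfap, with points for mice and bars for mean ± SD. C1q per microglia markers is near 1.9 in vehicle and PLX3397 mice and 1.70 with both drugs, whereas C1q per C4b is 18.3 in vehicle and 9.13 in PLX3397 mice.

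Across the 20 libraries of injured mice, the 9 genes formed patterns of their own, described here by Pearson's r of log2(TPM + 1). These libraries share the 4 treatment groups, so that r mostly follows group means. The C1q chains followed each other at r between 0.996 and 0.997, and the genes nearest to them were Ncf1 (0.995 with C1qa), a subunit of the phagocyte oxidase, Fcer1g (0.995 with C1qb), the common chain of Fc receptors, and Pycard (0.996 with C1qc), the inflammasome adaptor. C3ar1 was nearest to Ms4a6d (0.987), Cd53 (0.987) and Msr1 (0.984), the last a scavenger receptor of macrophages, and C5ar1 to Wdfy4 (0.981), Edem1 (0.977) and Gmip (0.974). C4b was nearest to Ggta1 (0.923), Csf1 (0.922), which encodes a ligand of CSF1R, and Cpt1a (0.884). Cfb was nearest to Psmb9 (0.903), a subunit of the immunoproteasome, Tapbp (0.901), which loads class I molecules with peptides, and Irf7 (0.898), an interferon-response factor. C3 had weaker neighbours (5930403N24Rik 0.818, Tor1aip1 0.812 and Cxcr4 0.808), and so had Serping1 (Aspg 0.778 and BC017643 0.769).

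Within groups, after removal of the group means over the 24 libraries, these relations differed. C1qa kept r = 0.973 with C1qb and 0.948 with C1qc. Serping1, at r = 0.187 with C1qa over the 20 libraries of injured mice, was at 0.766 within groups, so that mice high in C1qa for their group also tended to be high in Serping1. C3 was at 0.248 with C1qa and 0.617 with C4b within groups. For C5ar1 the value was 0.81 with Pdgfrb, a mural cell marker, and 0.32 with Csf1r. These values rest on few mice in each group and share library composition.

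Of 49 other complement genes on a list by role, 29 reached a mean of 0.5 TPM and were tested. In vehicle compared with sham mice 16 were called higher and 4 lower, where 26.6% of all genes tested were called higher and 27.7% lower. With PLX3397 1 was called higher and 7 lower, compared with 3.23% and 6.66% of all genes. With Anakinra 0 were called in either direction in limma, compared with 0.116% of all genes. At an unadjusted p below 0.05 were 4 of the 29 and 2148 of the 17267 genes tested. With both drugs 2 were higher and 10 lower, compared with 7.88% and 9.6% of all genes. The median log2FC over the 29 genes was 0.37 after injury and between -0.03 and -0.02 in the 3 drug comparisons.

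The subunits of complement receptor 3, which binds C3 fragments on phagocytes, followed the pattern of C1q. Itgam was at 13.2 TPM in sham, 81.8 in vehicle, 30.4 in PLX3397 and 24.8 TPM in PLX3397+Anakinra mice (log2FC 2.53 for vehicle against sham, -1.40 for PLX3397 and -1.68 for both drugs against vehicle). Itgb2 behaved likewise, from 5.37 to 59.5, 28.7 and 19.99 TPM. Itgax, the subunit of complement receptor 4, rose with injury from 0.24 to 7.03 TPM. It was at 5.95 TPM with PLX3397 alone (log2FC -0.21, adjusted p = 0.53 in limma). With both drugs, at 3.52 TPM, it was called lower than in vehicle mice (-0.83, adjusted p = 0.0014). Compared directly, both drugs and PLX3397 alone differed in 0 of 5 tested receptor genes in limma, Itgax among them, with 4 at an unadjusted p below 0.05. The Itgax ranges overlapped, at 4.55 to 8.70 TPM with PLX3397 and 2.40 to 4.94 TPM with both drugs. C5ar2, the other C5a receptor, was called higher after injury and lower in both groups with PLX3397, and Cd93 was called higher after injury and lower with both drugs (-0.69, adjusted p = 0.0015).

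The proteases and their partner that act with C1q and C4b rose with injury but, unlike C1q, were not called lower under PLX3397. C1ra, C1s1 and C2 were higher after injury by 0.37, 0.64 and 0.51 log2 units and were not called under any drug, with log2FC under PLX3397 of 0.30, 0.41 and 0.03. C1rl was called lower with both drugs (-0.47, adjusted p = 0.0066 in limma). Of the lectin pathway, the ficolin gene Fcna rose from 0.40 to 1.85 TPM after injury and was at 0.33 TPM under PLX3397 and 0.26 TPM with both drugs (log2FC -1.09 and -1.15), below its sham mean. The collectin Colec12 was higher after injury (0.58) and was not called under any drug. Properdin (Cfp), which stabilizes the convertase of the alternative pathway, rose with injury (0.99) and was lower under PLX3397 (-0.77, adjusted p = 0.00058) and with both drugs (-0.99, adjusted p = 1.3e-05).

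Among regulators, Cr1l, the rodent membrane regulator Crry, rose with injury and fell in both groups given PLX3397, from 23.7 to 36.0 TPM and to 29.2 and 29.9 TPM. Clu, at 1592 TPM in vehicle mice the most abundant of the complement genes examined, rose by 0.51 with injury and was not called in any comparison of a drug with vehicle. The membrane regulators Cd46, Cd55, Cd59a and Cd59b were not called in the comparison of vehicle with sham or of any drug with vehicle. Susd4 and Csmd1, which encode regulators with sushi domains, were lower after injury (-0.44 and -0.41). Of the terminal pathway, 7 genes were listed and only C7 and C8g reached the level for testing, of which C7 was lower after injury (-0.40, adjusted p = 0.01 in limma). Hc, which encodes C5, was at a mean of 0.314 TPM and was not tested.

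**Figure D5:**
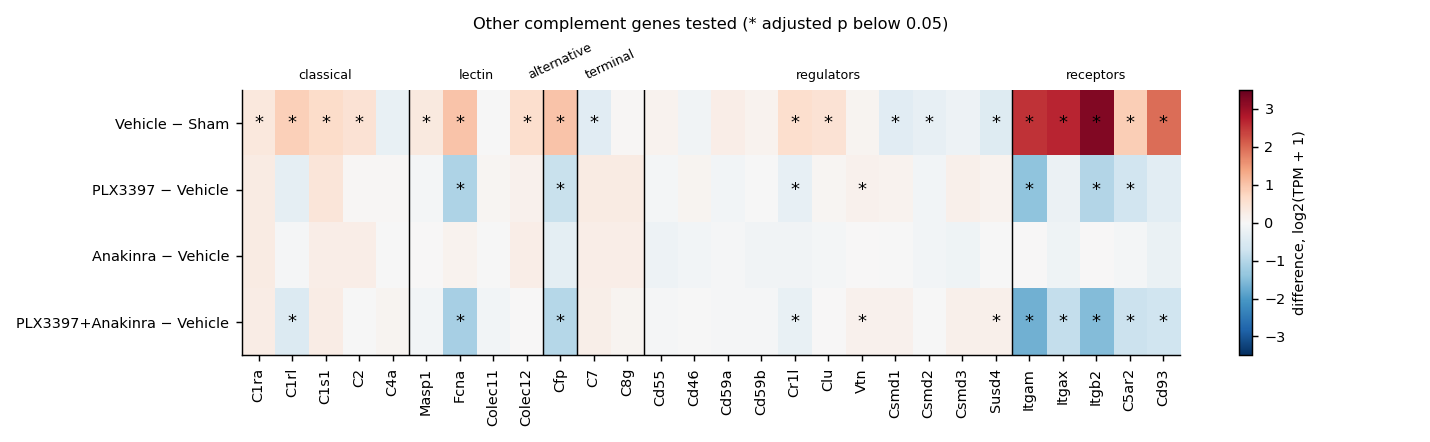
Differences in log2(TPM + 1) for 28 of the 29 other complement genes that were tested (columns, grouped by role) in 4 comparisons (rows). Red is higher and blue lower in the first group named, and stars mark an adjusted p below 0.05. After injury 15 of the genes shown are starred as higher, with Itgb2, Itgax and Itgam the strongest. With PLX3397, Itgam, Fcna and Itgb2 show the strongest blue.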

How the data were processed

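RNA-seq libraries of 24 mice were analysed. Using CLC Genomics Workbench, the authors mapped reads to GRCm38 (mm10) and computed TPM, which sum to 1000000 in each library of the deposited table of 36333 genes. The table used holds TPM at full precision, and a copy rounded to 3 decimals served as an alternative. A filtered table with rounded TPM and p and F values of the authors' own tests was not used. The tables hold no read counts, so the depth is unknown and precision rests on the spread between mice.

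The treatment label gave each sample its group. For the 17267 genes whose mean over all libraries reached 0.5 TPM, log2(TPM + 1) was fitted in limma 3.58.1 (R 4.3.3) with a mean for each of the 5 groups, which shared the spread and its trend on expression. A gene was called at a Benjamini-Hochberg adjusted p below 0.05 over all genes tested. Levels are mean ± SD of TPM, log2 differences are given ± SE with 95% confidence intervals, and intervals in the text are these. The procedure was tested on simulated data. Ratios, lists and correlations are descriptions with no test, computed in Python 3.11.15.

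The 9 genes and all gene lists were chosen with earlier results of these data known. Named were the 9 genes, other complement genes called after injury or under a drug (up to 12 with the largest change) and C4a, the 3 genes with the highest Pearson's r to each of the 9, and the drug targets. Further genes (C1ra, C2, Clu, Susd4, Csmd1, C7, C8g, Hc, Cd46, Cd55, Cd59a, Cd59b, Ttr and Pdgfrb) were named after their values were seen. Some genes that the rule selects are not reported here. Coordinates and promoters are from RefSeq (GRCm38.p6), and C4 transcripts from GENCODE vM21. Proteins were not compared. Alternatives were another pseudocount (0.1 TPM), no filter, a mean of at least 5 TPM, median-ratio rescaling, the rounded table, only the compared groups, no variance trend, robust variances, the call criteria of the study, leaving out each mouse and, added after the data were seen, a block on shared animal numbers.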

Additional observations from a re-analysis of the deposited data

Results flagged for a closer look

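In 3 of 45 sets of values (9 genes in 5 groups) 1 mouse stood apart from the others of its group, where chance flags about 1 in 20 sets. PLX3397 mouse J02 had the highest C1qa of its group, 696 TPM, compared with 442 to 502 TPM in the other mice. Sham mouse J16 had the highest C3ar1 among sham mice, 1.64 TPM, compared with 1.20 to 1.25 TPM. Vehicle mouse J17B had the lowest Serping1 of its group, 28.6 TPM, compared with 36.3 to 38.9 TPM, and it also had the lowest level of the other 8 genes among vehicle mice.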

How the results depend on the processing

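The counts of the 9 genes called stayed within 1.5 times of those reported under all alternatives that keep all mice. With the call criteria of the study (unadjusted p below 0.05, a ratio above 2 and a difference above 4 TPM) 8 genes were called for vehicle against sham, 4 for PLX3397, 0 for Anakinra and 6 for both drugs against vehicle. Of the 17267 genes tested, these criteria called 909 for vehicle against sham, compared with 9378 by the adjusted p. Against vehicle they called 176 for PLX3397, 31 for Anakinra and 285 for both drugs. At a mean of at least 5 TPM, Cfb was not tested. Median-ratio rescaling used factors between 0.9749 and 1.05 and changed no call of the 9 genes. Leaving out 1 mouse gave counts of 5 to 6 for PLX3397 against vehicle and 0 to 1 for both drugs against PLX3397, and constant counts in the other comparisons. Without 1 mouse, 24 of the log2 differences changed sign, all of them uncalled. For Anakinra against vehicle the values without 1 mouse ranged from -0.114 to 0.0382 for C1qc, from -0.192 to 0.0715 for C5ar1 and from -0.0322 to 0.0752 for Serping1. For the interaction they ranged from -0.158 to 0.135 for C3, from -0.0867 to 0.0377 for C4b and from -0.135 to 0.129 for C5ar1. With group medians in place of means, the elevation left was 85.1% for C1qa under Anakinra, and for C5ar1 27.3% under PLX3397 and 27.7% with both drugs. The cause of these changes was not tested. Animal numbers 01, 19 and 20 occur in the vehicle (with the letter B) and PLX3397 groups and number 17 in the vehicle and PLX3397+Anakinra groups, and the labels do not say what a number marks. The deviations of same-numbered mice from their group means correlated over genes at r = 0.173, -0.134, -0.066 and 0.318 for numbers 01, 19, 20 and 17. For numbers 01 and 17 this was above the highest r of the vehicle mouse with the other mice of the second group (0.102 and 0.046). For number 19 it lay within the range of those values (-0.411 to 0.315), and for number 20 below it (-0.031 to 0.092). Whether the numbers mark a pairing was not tested, and the main fit took none. With these numbers as a replicate block, an alternative chosen after the data were seen, 6 of 9 genes were called for PLX3397 against vehicle, the added gene being C3 (-0.51, adjusted p = 0.0426), and the counts in the other comparisons were those reported. The interaction then changed sign for C3 (0.124), C4b (0.0818) and C5ar1 (0.171), all uncalled.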
